A study of Mus musculus with 3 samples.

Results

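Globins and genes of red cell metabolism were followed in whole mouse skin before and after cyclophosphamide. The 6 genes were Hba-a1 and Hba-a2, which encode adult alpha globin, Hbb-bs and Hbb-bt, which encode adult beta globin, Alas2, the red cell form of the first enzyme of haem synthesis, and Bpgm, which makes the 2,3-bisphosphoglycerate that lowers the oxygen affinity of haemoglobin. Gene clusters of the deposited tables were assigned to these genes by their written description or by an exact match of their sequence tags to reference transcripts. This gave 10 of the 20595 clusters listed in any table: 4 for alpha globin, 4 for beta globin, 1 for Alas2 and 1 for Bpgm. The genes were chosen by their tag counts and day 2 ratios in these same libraries, so their levels are described here without a test.

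Skin came from male C57BL/6 mice, 2 months old, depilated 9 days before the drug to start hair growth. Cyclophosphamide, an alkylating anticancer drug, was given by intraperitoneal injection of 150 mg/kg, per the series design text. There were 3 libraries, 1 from each group: untreated skin (day 0), skin 1 day after the drug (day 1) and skin 2 days after it (day 2), all depilated alike. No untreated skin of day 1 or day 2 was profiled, so the drug and the passing of time cannot be told apart, and the sources used here do not say how many mice a library stands for. With 1 library a day, no difference was checked in a replicate. The tables held 2636804 to 2859653 tags per library.

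Haemoglobin is a tetramer of paired alpha and beta chains, each holding 1 haem. In adult mice it is made by erythroblasts of bone marrow and spleen, which then lose the nucleus and enter the blood as reticulocytes, young red cells that still carry globin and Alas2 mRNA for a short time before it decays. Mature red cells have no nucleus and make no new RNA. Skin itself does not form red cells, and globin RNA in a whole skin extract is commonly carried in with blood. Cyclophosphamide is known to be toxic to dividing marrow cells.

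In digital gene expression each polyadenylated transcript is counted through a tag of 21 bases that begins with CATG, cut out at an NlaIII site, ideally the site nearest the poly(A) tail. The tags below carry most of the counts of the member genes, and they show which copies can be separated. CATG is in capitals in every tag, and so is the base at which the tags of Hba-a1 and Hba-a2 differ.
Hba-a1 and Hba-a2, shared main tag: CATGcccttcttctctccctt
Hba-a1, site 2 from the 3′ end: CATGcctctctggaCaaattc
Hba-a2, site 2 from the 3′ end: CATGcctctctggaTaaattc
Hbb-bs and Hbb-bt, site 4, over the start codon: CATGgtgcacctgactgatgc
Hbb-bs and Hbb-bt, site 2: CATGgcaagaaagtgataact
Hbb-bs and Hbb-bt, opposite strand: CATGatagcagaggcagagga
Alas2, site 1: CATGggaccccaatatgttac
Bpgm, site 3: CATGcagtgtgttccgagcgg

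The main alpha globin tag lies in the 3′ UTR, in exon 3 of 3, of both genes: at chr11:32284421-32284441 on the plus strand in Hba-a1 and at chr11:32297238-32297258 in Hba-a2 (GRCm38). It cannot separate the copies. Upstream of it, in the coding part of the same exon, the tags at chr11:32284329-32284349 (Hba-a1) and chr11:32297146-32297166 (Hba-a2) differ by the substitution C15T, with positions counted from 1 at the C of CATG. These were the only listed sense tags with an exact match that tell the alpha genes apart. Hbb-bs and Hbb-bt lie on the minus strand of chromosome 7, and each of their listed sense tags occurs in both. The start codon tag is in exon 1 of 3 of Hbb-bs, at chr7:103827856-103827876, and the site 2 tag is in its exon 2, at chr7:103827553-103827573. Alas2 is on the X chromosome, and its main tag is in coding exon 11 of 11, at chrX:150570458-150570478. The main tag of Bpgm is in the 3′ UTR, at chr6:34504478-34504498. Both of these tags occur in 1 reference gene each.

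Alpha globin had the most tags of the set and was much lower in the day 2 library than in the others. Its 4 clusters held 5036 tags at day 0, 4335 at day 1 and 370 at day 2. After TMM scaling of the libraries, which lines up the bulk of the genes, these were, in counts per 1000000 (CPM), 1790, 1612 and 136. Days 0 and 1 thus stood close together, and day 2 stood far below both. The log2 ratio was -0.15 (95% interval -0.21 to -0.09) for day 1 over day 0 and -3.72 (-3.88 to -3.57) for day 2 over day 0, a level 13.2-fold lower. Intervals here and below are exact and cover counting error only, since PCR copies are not separate molecules and 1 library cannot show the spread between mice. Against day 1 the day 2 level was 11.8-fold lower, a log2 ratio of -3.57 (-3.73 to -3.41). Of all tags the authors kept, a total worked out from the deposited values, alpha globin made up 0.0835% at day 0, 0.0714% at day 1 and 0.00653% at day 2. In whole tissue, fewer red cells and less globin RNA per red cell cannot be told apart.

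Beta globin stood at a lower tag level and was also lowest at day 2. No tag is listed from its site nearest the 3′ end, so alpha and beta globin levels compare tags and not transcripts. Its clusters, opposite-strand tags included, held 131 tags at day 0, 138 at day 1 and 15 at day 2, or 46.6, 51.3 and 5.51 CPM. Day 1 differed from day 0 by less than counting error, with a log2 ratio of 0.14 (-0.22 to 0.50). Day 2 was 8.21-fold lower than day 0, at -3.04 (-3.96 to -2.30), and 9.05-fold lower than day 1, at -3.18 (-4.10 to -2.45). The intervals of the alpha and beta ratios of day 2 over day 0 overlap. Of the beta globin tags, 68, 67 and 6 at days 0, 1 and 2 came from the opposite strand. The sense tags alone held 63, 71 and 9, or 22.4, 26.4 and 3.31 CPM. Their level at day 2 was 6.47-fold lower than at day 0.

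Alas2 joins glycine and succinyl-CoA, the rate-limiting step of haem synthesis in erythroid cells. It held 81 tags at day 0, 69 at day 1 and 17 at day 2, or 28.8, 25.7 and 6.24 CPM. Days 0 and 1 were alike within counting error, at -0.17 (-0.65 to 0.31), and day 2 was the low library. The log2 ratio of day 2 over day 0 was -2.17 (-3.05 to -1.44), 4.51-fold lower, and that of day 2 over day 1 was -2.01 (-2.90 to -1.26), 4.02-fold lower. Its interval for day 2 over day 0 lies above that of alpha globin and overlaps that of beta globin.

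Bpgm differed least of the 4 at day 2. It held 355 tags at day 0, 406 at day 1 and 186 at day 2, or 126, 151 and 68.3 CPM. Day 1 was the highest library and day 2 the lowest. The log2 ratio was 0.26 (0.05 to 0.47) for day 1 over day 0 and -0.88 (-1.15 to -0.63) for day 2 over day 0, which is 1.84-fold lower and short of a 2-fold difference. Against day 1, day 2 was 2.21-fold lower, at -1.14 (-1.40 to -0.89). The 3 genes or gene pairs specific to red cells were thus 4.51-fold to 13.2-fold lower at day 2 than at day 0. Bpgm, an enzyme of the glycolytic side path that is also made outside red cells, was 1.84-fold lower. Which cells its tags came from was not tested.

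**Figure D1:**
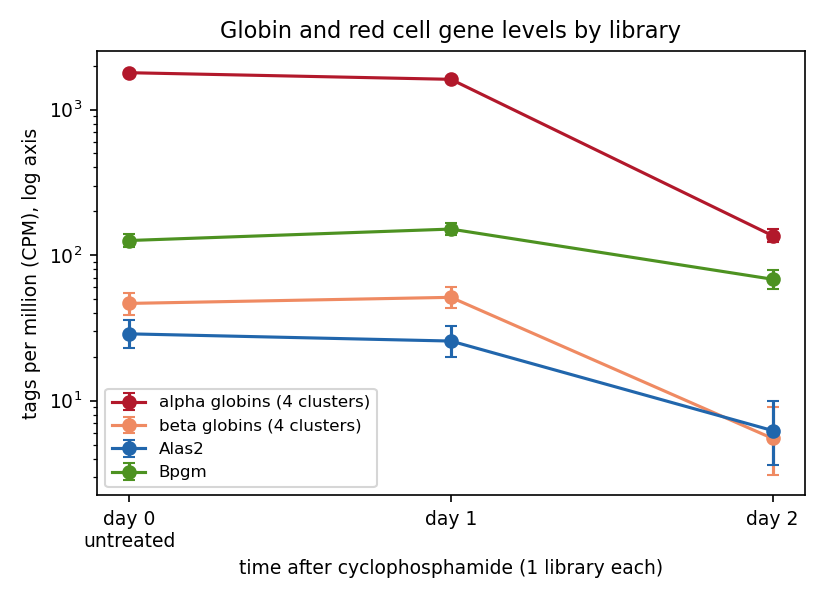
Level of each member in CPM (log axis) at days 0, 1 and 2, with 1 library per day; bars are exact 95% counting intervals. Alpha globin goes from 1790 and 1612 to 136 CPM, beta globin from 46.6 and 51.3 to 5.51, Alas2 from 28.8 and 25.7 to 6.24, and Bpgm from 126 and 151 to 68.3. The alpha and beta globin levels include opposite-strand tags.

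Set beside all genes, the members were counted by cluster. With 1 library a group, a cluster was counted as lower or higher when its ratio was 2-fold or more, among the 13812 clusters that reached 15 tags over all 3 libraries. All 10 member clusters reached that sum. At day 1 over day 0, 0 of 10 were lower and 0 were higher, where 6.8% of all clusters were lower and 5.81% higher, and 0 were lower by 4-fold or more, against 0.789%. At day 2 over day 0, 9 of 10 were lower and 0 higher, against 8.2% and 9.09% of all clusters, and 8 of 10 were lower by 4-fold or more, against 1.14%. At day 2 over day 1, 10 of 10 were lower and 0 higher, against 4.9% and 7.77%, and 8 of 10 were lower by 4-fold or more, against 0.688%. Of the 5 member clusters with 100 or more tags, 0 were lower and 0 higher at day 1 over day 0, against 2.62% and 2.93% of the 7954 clusters at that depth, with 0 at 4-fold, against 0.101%. At day 2 over day 0, 4 of these 5 were lower and 0 higher, against 5.44% and 5.56%, with 4 at 4-fold, against 0.365%. Against day 1, 5 of 5 were lower and 0 higher, against 2.26% and 3.08%, with 4 at 4-fold, against 0.251%. Among the 10, the Hba-a2 cluster is not listed at day 2 and was counted as lower through the pseudocount alone. These shares describe genes that were picked for such values, and nothing is read from them. The median log2 ratio of all clusters was -0.02, 0.01 and -0.02 in the 3 comparisons.

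The summed levels were also placed by rank among the 7949 other clusters with 100 or more tags. Between days 0 and 2, 2 clusters were as far lower as alpha globin or farther, 6 as far as beta globin, 16 as far as Alas2 and 588, or 7.4%, as far as Bpgm. Between days 1 and 2, 0 clusters were as far lower as alpha globin, 1 as far as beta globin, 14 as far as Alas2 and 108, or 1.36%, as far as Bpgm. These ranks restate the values by which the genes were chosen, and nothing is read from them.

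**Figure D2:**
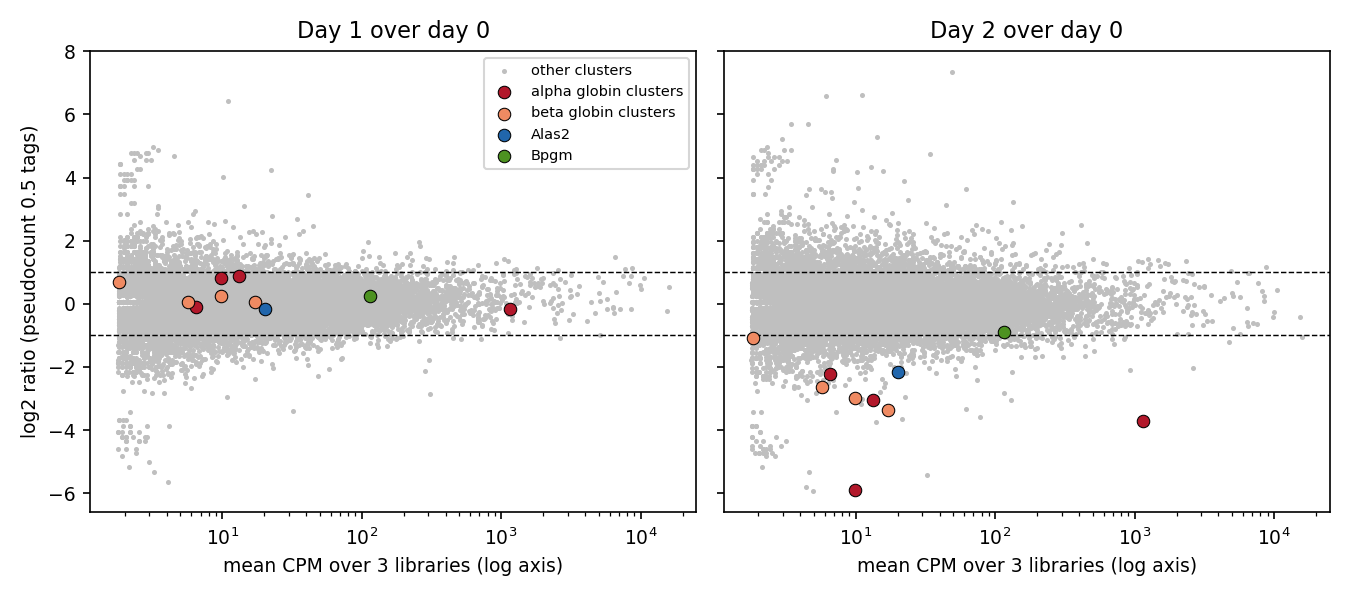
Log2 ratio of each cluster with 15 or more tags (vertical axis) against its mean CPM over the 3 libraries (log axis), for day 1 over day 0 (left) and day 2 over day 0 (right); coloured points are the 10 member clusters and dashed lines mark 2-fold. At day 1 all 10 lie between the lines, and at day 2 all but Bpgm lie below them; the lowest red point is the Hba-a2 cluster, which is not listed at day 2 and is placed by the pseudocount.

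The alpha globin counts rest almost wholly on the shared 3′ UTR tag. It held 4866, 4151 and 361 copies at days 0, 1 and 2, which is 96.6%, 95.8% and 97.6% of all alpha globin tags. Its own log2 ratios were -0.16 (-0.22 to -0.10) for day 1 over day 0 and -3.70 (-3.86 to -3.55) for day 2 over day 0. A further 15 listed tags of that cluster differ from it by 1 base each. Together they held 76 copies at day 0, 43 at day 1 and 0 at day 2, or 1.54%, 1.03% and 0% of the cluster. The tables list no tag with fewer than 2 copies, so a variant with fewer would not appear in them.

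The tags that separate the alpha genes did not follow the main tag at day 1. Hba-a1 held 38 copies at day 0, 67 at day 1 and 4 at day 2, and Hba-a2 held 30 and 51 copies at days 0 and 1 and was not listed at day 2. Both were highest at day 1, and at day 2 Hba-a1 was lowest and Hba-a2 was unlisted. The log2 ratio of day 1 over day 0 was 0.87 (0.29 to 1.50) for Hba-a1 and 0.82 (0.15 to 1.53) for Hba-a2, both short of 2-fold. Summed, the gene-specific tags went from 68 to 118 and then 4 copies, with ratios of 0.86 (0.42 to 1.31) for day 1 over day 0 and -3.88 (-5.96 to -2.62) for day 2 over day 0. As a share of the copies of the main tag they were 1.4% (1.08 to 1.77) at day 0, 2.84% (2.35 to 3.41) at day 1 and 1.11% (0.3 to 2.86) at day 2. The day 1 share lies above that of day 0 beyond counting error, so the direction of the small day 1 difference in alpha globin depends on which tag is read, while at day 2 all of them were lower.

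The copies of Hba-a1 and Hba-a2 stood in nearly the same ratio on both days on which both were listed. There were 1.27 (0.764 to 2.12) Hba-a1 tags for each Hba-a2 tag at day 0 and 1.31 (0.899 to 1.93) at day 1. Both intervals include equal numbers. At day 2 no ratio can be given, because the Hba-a2 tag is not listed.

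Sense beta globin tags were few and spread over 3 sites. The start codon tag held 36, 41 and 4 copies at days 0, 1 and 2, the site 2 tag 22, 22 and 3, and the site 3 tag 5, 8 and 2. At each site days 0 and 1 were close and day 2 was lowest. Together they gave a log2 ratio of 0.24 (-0.27 to 0.75) for day 1 over day 0 and -2.69 (-3.95 to -1.74) for day 2 over day 0. The tag of the site nearest the 3′ end, which occurs in 4 reference genes (Hbb-bh1, Hbb-bs, Hbb-bt and Hbb-y), is listed in no table. Over all tags of their clusters, opposite-strand tags included, the alpha to beta ratio was 38.4 (32.3 to 46.1) at day 0, 31.4 (26.5 to 37.5) at day 1 and 24.7 (14.8 to 44.5) at day 2. Because the tables list no tag from that last site of beta globin, this is a ratio of tags and not of transcripts, and the 3 intervals overlap. With tags that match a member transcript exactly, which leaves out the opposite strand, it was 78.3, 60.1 and 40.6.

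Clusters assigned by their description alone held tags from the opposite strand of globin exons. The beta globin one, with the opposite-strand tag printed above (plus strand, chr7:103827595-103827615 in Hbb-bs) and 1 more, held 68 tags at day 0, 67 at day 1 and 6 at day 2. The alpha globin one held 26, 23 and 5 tags. Their log2 ratios of day 2 over day 0 were -3.35 (-4.95 to -2.26) and -2.22 (-4.07 to -0.93), and those of day 1 over day 0 were 0.04 (-0.47 to 0.55) and -0.11 (-0.99 to 0.75). Both were thus lowest at day 2, like the sense tags. A further opposite-strand tag of Hbb-bs, in a cluster with no globin name that is not among the 10, held 10 and 16 copies at days 0 and 1 and was not listed at day 2. The tags on the sense and opposite strands of beta globin were about equal in number, with 63 against 68 at day 0, whereas in alpha globin the opposite strand was a small part of the whole.

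Alas2 was read at site 1 with 75, 69 and 17 copies at days 0, 1 and 2, and at site 3 with 6 copies at day 0 alone. The other 12 of its 14 CATG sites are listed in no table. The site 1 tag alone gave -2.06 (-2.95 to -1.32) for day 2 over day 0. Bpgm was counted mainly at site 3, 1136 bases from the annotated 3′ end, with 328, 372 and 176 copies, or 92.4%, 91.6% and 94.6% of its tags. Its site 4, in the coding sequence, held 21, 22 and 10 copies. Without the main tag the log2 ratio of day 2 over day 0 was -1.34, past 2-fold, on these few tags. The site nearest the annotated end of Bpgm held 2 copies at day 1 and was listed on no other day, so nearly all of its tags came from sites far upstream of that end on all 3 days.

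**Figure D3:**
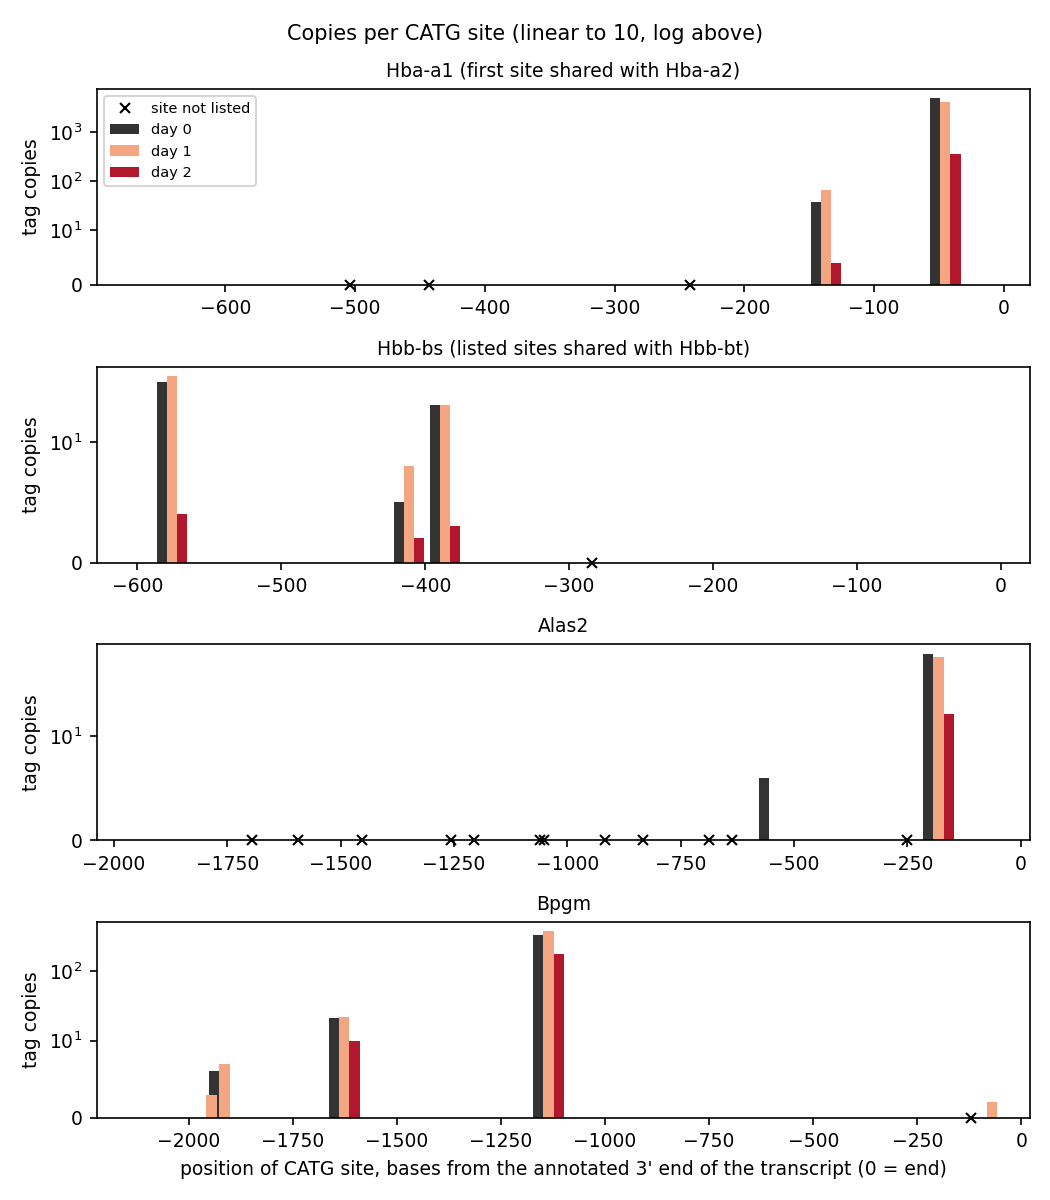
Copies per CATG site for Hba-a1, Hbb-bs, Alas2 and Bpgm (vertical axis, linear to 10 and log above) against the distance of the site from the annotated 3′ end of the transcript, in bases; bars are days 0, 1 and 2 and crosses are sites listed in no table. Alpha globin and Alas2 are read at the site nearest the 3′ end, beta globin at upstream sites, and Bpgm 1136 bases from the end; at the main sites day 2 is the lowest bar.

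Erythroid promoters commonly hold CACCC boxes, bound by Klf1, and GATA motifs, bound by Gata1. The CACCC box (as CCACACCC), the GATA motif (as AGATAA), the CCAAT box (as CCAAT) and the TATA box (as TATAAA) were searched on both strands of the RefSeq promoter windows (GRCm38.p6), from 250 bases before to 50 after each start, and occur in 3.56%, 11.2%, 37.4% and 13.6% of 32851 windows. The stretches that hold a CACCC box or a GATA motif, and the CCAAT box that the alpha genes share, are shown to let the promoters be compared, with the motif in capitals.
Hbb-bs, CACCC box: ccgtagagCCACACCCtggtaagg
Hbb-bs, GATA motif: ctctgcacAGATAAggacaaac
Alas2, GATA motif on the opposite strand: tttgctttTTATCTttagcaga
Hba-a1 and Hba-a2, CCAAT box: caaaccagCCAATgagaactg

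The CACCC box of Hbb-bs begins at position -93 from the start, at chr7:103828006-103828029 with its flanks on the minus strand, and its GATA motif at -210. The GATA motif of Alas2 lies at -86 on the opposite strand, at chrX:150547323-150547344. Hba-a1 and Hba-a2 have a CCAAT box in the same 21-base stretch, at -88 and -91, and neither of the erythroid motifs in these letters. Hbb-bt has 3 CCAAT boxes over both strands and a TATA box at -28, and Bpgm has 3 CCAAT boxes. Neither holds the CACCC box or the GATA motif in these letters, so of the 6 genes Hbb-bs alone held both and Alas2 the GATA motif only. The tags cannot separate Hbb-bs from Hbb-bt, so their promoters cannot be set against levels of their own. These are matches of letters, not binding sites, and these short words also occur in promoters of genes of every kind at the shares given.

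Few genes of the lists set beside the members were lower at day 2. These 8 lists, called red cell lists below, cover genes tied to red cells, globins, haem or iron. Not all are made by red cells, and Mb, Hp and Cd163, given below, are among those counted as higher at day 2 over day 0. Of their 89 genes, 62 are listed in at least 1 table and 50 reached 15 tags. At day 2 over day 0, 1 of the 50 (2%) was lower by 2-fold or more and 7 (14%) were higher, beside 8.2% and 9.09% of all clusters. The median log2 ratio over the 50 was 0.06, beside 0.01 over all clusters. At day 1 over day 0, 0 were lower and 4 (8%) higher, beside 6.8% and 5.81% of all clusters, with a median of 0.06. Scaling to tag totals in place of TMM left 1 or 2 higher. At day 2 over day 1, 1 (2%) was lower and 3 (6%) were higher, beside 4.9% and 7.77% of all clusters, with a median of 0.03.

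The other globins were few. The embryonic and fetal-type genes Hba-x, Hbb-y, Hbb-bh0, Hbb-bh1 and Hbb-bh2, and the theta-like Hbq1a and Hbq1b, are listed in no table. Myoglobin (Mb), the oxygen store of muscle, held 745 tags at day 0, 1433 at day 1 and 1940 at day 2, so day 2 was its highest library. Over day 0 it was 2.01-fold higher at day 1 and 2.69-fold higher at day 2, with log2 ratios of 1.01 (0.88 to 1.14) and 1.43 (1.31 to 1.55). The day 1 interval reaches below 2-fold. Cytoglobin (Cygb), a globin of fibroblasts and other connective cells, held 213, 237 and 374 tags, with a ratio of 0.86 (0.61 to 1.11) at day 2 over day 0. Neuroglobin (Ngb) was not listed at day 0 and held 2 and 4 tags after it.

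Of the rest of haem synthesis, 7 of 8 genes were measured, with a median log2 ratio of -0.49 for day 2 over day 0. Ppox, which oxidises protoporphyrinogen, was the only one of them lower by 2-fold or more, on 11, 6 and 3 tags, at -1.67 (-4.31 to 0.09), an interval that includes no difference. Fech, which inserts the iron, stood at -0.49 (-0.84 to -0.15), on tags that also occur in other genes. Alas1, the form of the first enzyme used in every tissue, held 143, 169 and 180 tags, at 0.38 (0.05 to 0.71), in the direction opposite to that of Alas2. Cpox, which acts before Ppox, stood at 0.41 (-0.13 to 0.96). Low Alas2 at day 2 therefore stood beside levels within 2-fold for the measured haem genes other than Ppox.

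No gene of iron and haem transport passed 2-fold in any comparison, of 8 with enough tags. The mitochondrial iron importer Slc25a37 held 307, 476 and 298 tags, highest at day 1, and its ratio was 0.00 (-0.23 to 0.24) for day 2 over day 0. Steap3, an iron reductase of endosomes, stood at 0.97 (0.60 to 1.36), the iron importer Slc11a2 at 0.11 (-0.27 to 0.48) and the haem precursor transporter Tmem14c at 0.01 (-0.13 to 0.15). The rest were below 20 CPM on every day. Of these, the transferrin receptor Tfrc was lower at day 2 than at day 0, at -0.78 (-1.50 to -0.11). Flvcr1 stood at -0.63 (-1.58 to 0.26), Slc25a39 at -0.52 (-1.63 to 0.51) and Trf at 0.11 (-0.84 to 1.08).

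Defining genes of the red cell membrane were near or below what the tables can list. Epb42, Rhag, Kel and Tmod1 are listed in no table, and Slc4a1, the band 3 anion exchanger, held 2 tags at day 0, was not listed at day 1 and held 2 at day 2. Of 7 genes of this list with enough tags, 0 were lower and 4 higher at day 2 over day 0, with a median of 1.24. They were Ank1, an ankyrin that is also made in muscle, at 42, 34 and 104 tags and 1.34 (0.83 to 1.91), the water channel Aqp1, also made in vessel walls, at 243, 399 and 577 tags and 1.29 (1.08 to 1.52), glycophorin C (Gypc) at 10, 10 and 25 tags and 1.33 (0.26 to 2.59), and the actin-bundling Dmtn at 8, 17 and 19 tags and 1.24 (0.04 to 2.70). The skeleton protein Epb41 stood at -0.02 (-0.95 to 0.91), beta spectrin (Sptb) at 0.53 (-0.21 to 1.31) and the glucose carrier Slc2a1 at -0.04 (-0.63 to 0.55). The members of this list that could be measured thus include genes with known use in other cells of skin, and each was higher or within 2-fold.

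Erythroid transcription factors were hardly counted. Klf1 and Gfi1b are listed in no table, Gata1 held 3 tags at day 1 and was listed on no other day, and Nfe2 held 2 tags at day 0 alone. Tal1, which endothelium also makes, was not listed at day 0 and held 2 and 11 tags after it. The broadly made cofactors Ldb1 and Zfpm1 stood at -0.24 (-0.45 to -0.03) and -0.10 (-0.65 to 0.45) for day 2 over day 0, and the erythropoietin receptor Epor at 0.51 (-0.74 to 1.86).

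Among enzymes and chaperones that red cells are rich in, the alpha globin chaperone Ahsp and the enzymes Car1, Blvrb and Pklr are listed in no table. Prdx2, a peroxidase that is abundant in red cells and present in many others, held 3108, 3566 and 1828 tags. It was highest at day 1 and lowest at day 2, at 0.26 (0.19 to 0.33), then -0.72 (-0.80 to -0.63) against day 0 and -0.98 (-1.06 to -0.90) against day 1, short of 2-fold. That is the order of days of Bpgm. Catalase (Cat) stood at 0.48 (0.08 to 0.89), Gpx1 at 0.28 (0.15 to 0.42) and the muscle phosphoglycerate mutase Pgam2, a relative of Bpgm, at 0.99 (0.77 to 1.21). No member of the list passed 2-fold, of 7 with enough tags.

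Genes of late red cell maturation were close to day 0 at day 2, with 0 of 8 past 2-fold. Fam210b stood at -0.66 (-1.01 to -0.32), Xpo7 at -0.44 (-0.73 to -0.15), Fbxo7 at -0.28 (-0.60 to 0.05) and Bnip3l, which helps to clear mitochondria, at -0.15 (-0.27 to -0.02). At day 1, 2 of the 8 were higher: Ube2l6, a conjugating enzyme for the interferon-induced modifier Isg15, at 101, 200 and 102 tags and 1.05 (0.70 to 1.41), and Isca1, on tags shared with another transcript, at 32, 73 and 33 tags and 1.24 (0.64 to 1.90).

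Genes that clear haem and haemoglobin went the other way from the globins in part. Haptoglobin (Hp), which binds free haemoglobin, held 2295, 4010 and 5780 tags, and Cd163, the macrophage receptor for that complex, held 180, 246 and 470. Both were highest at day 2, with log2 ratios of 1.38 (1.31 to 1.45) and 1.43 (1.18 to 1.69) over day 0. Lrp1, a receptor for haem bound to haemopexin and for many other ligands, stood at 0.80 (0.60 to 1.01) over day 0 and was 2-fold higher than at day 1. The iron exporter Slc40a1 held 620, 528 and 353 tags, at -0.76 (-0.96 to -0.57), and haem oxygenase Hmox1 443, 265 and 414. Of 8 genes with enough tags, 0 were lower and 2 higher at day 2 over day 0, with a median of 0.46.

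**Figure D4:**
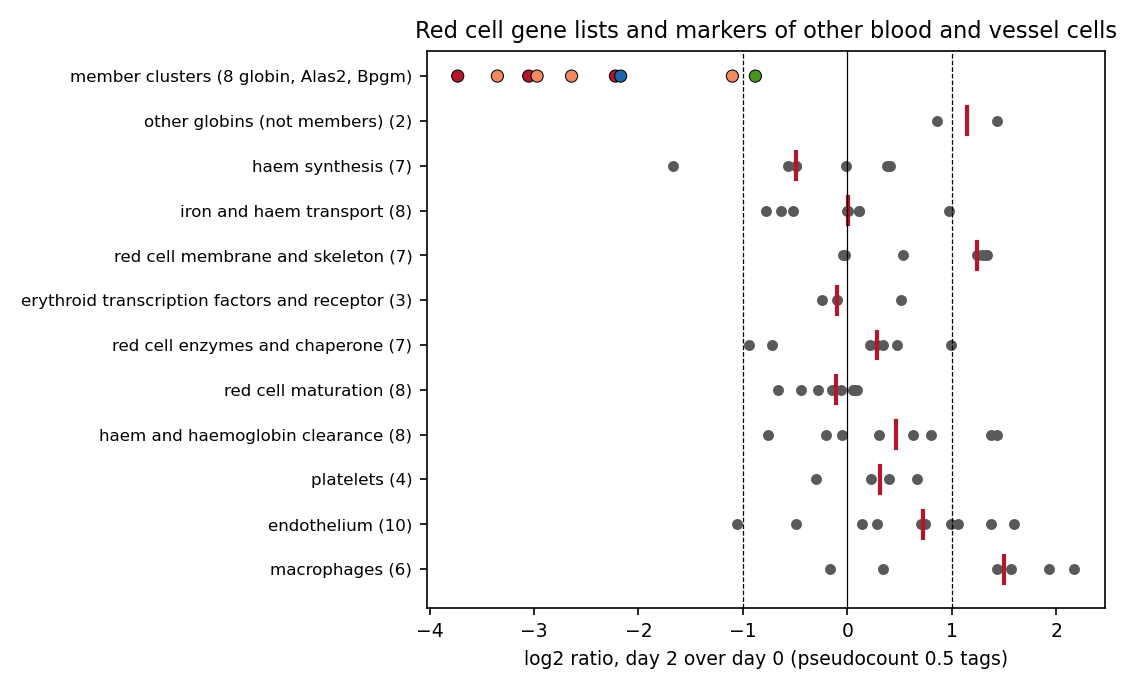
Log2 ratio of day 2 over day 0 for the member clusters (top row, without the Hba-a2 cluster, which is not listed at day 2) and for single genes of red cell and marker lists with 15 or more tags; numbers in parentheses count the genes, red bars are list medians and dashed lines mark 2-fold. The members lie at the left, from -3.73 to -0.88, while the medians of the red cell lists lie between -0.49 and 1.24.

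Markers of other blood and vessel cells are given beside the globins. Of 8 markers of reticulocytes and red cells, 6 are listed, and of those only the members themselves were above a trace, since Ahsp is in no table and Slc4a1 is at 2 tags or fewer. In this list alpha and beta globin were each read from a single cluster, with 4942 and 36 tags at day 0. Its summed level, which leaves out the other globin clusters, was 1799, 1600 and 141 CPM at days 0, 1 and 2. Platelet markers, carried in the same blood, summed to 80.3, 78.5 and 94 CPM, with 0 of 4 genes past 2-fold at day 2 over day 0. Pf4, the most abundant of them at days 0 and 2, held 123, 63 and 140 tags, while Itga2b stood at -0.30 (-1.06 to 0.44) and Gp1bb, on tags shared with Sept5, at 0.40 (-0.13 to 0.95). T cell markers summed to 15.3, 14.9 and 15.8 CPM and B cell markers to 1.07, 2.6 and 1.84 CPM. The summed platelet and T cell markers were not lower at day 2 than at day 0. The T cell sum rests on 43, 40 and 43 tags at days 0, 1 and 2. The platelet sum leans on Pf4, which gave 123 of its 226 tags at day 0 and 140 of 256 at day 2. Ppbp, Gp5 and Clec1b held 8 tags or fewer on each day. Which cells the Pf4 and T cell marker tags came from was not tested, nor was the part of blood in either sum.

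Neutrophil markers were listed for 2 of 10 genes. S100a9, also made by stressed epidermis, held 23, 65 and 83 tags, and Camp held 12, 3 and then no listing, while Ngp, Ltf, Elane and Mpo are in no table. Endothelial markers summed to 239, 256 and 291 CPM. Of 10 with enough tags, 1 was lower at day 2 over day 0 (Egfl7, -1.06) and 3 were higher (Vwf at 1.38, Tie1 at 1.60 and Tek at 1.06), with Cldn5 at 0.99 and Pecam1 at 0.74. Macrophage markers summed to 240, 262 and 553 CPM, and 4 of 6 were higher at day 2 (Fcgr1 at 2.17, Ms4a7 at 1.93, Mrc1 at 1.57 and Cd163). The part of any of these cells in the globin levels was not tested.

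The genes most like the globins over the days are not known as red cell genes. Over 5880 named clusters at 20 CPM or more at day 0, likeness was taken as the distance between pairs of log2 ratios (day 1 and day 2, each over day 0) from the 8 globin clusters summed, which stood at -0.14 and -3.70. The nearest was Mzt2, a partner of gamma-tubulin, at a distance of 0.64, with 110, 61 and 8 tags. It was followed by Apobec2, a muscle gene of the deaminase family, at 0.82 with 413, 204 and 33 tags, by the potassium channel Kcnk16 at 0.88 with 470, 422 and 64, by the homeobox gene Barx2 at 0.90 with 327, 160 and 31, and by the adaptor gene Sh2d4a at 1.12 with 74, 41 and 10. Of these, Kcnk16 alone shared the near-level day 1 of the globins, at -0.09 (-0.28 to 0.10), while the other 4 stood at -0.78 to -0.96 on that day.

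The same measure placed Krt35, a hair shaft keratin, nearest to Alas2, at a distance of 0.31 with 3968, 2747 and 901 tags. Next were the tubulin Tubb3 at 0.38, the triglyceride enzyme Dgat2 at 0.40, the protein C receptor Procr at 0.42 and the transcription factor Nfil3 at 0.47. Their log2 ratios of day 2 over day 0 ran from -2.19 to -1.71. With 2 ratios per gene from 3 libraries, such likeness is a description of these libraries.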

How the data were processed

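Per the labels' protocols, oligo(dT)-bound RNA of whole skin was copied into cDNA, cut at CATG with NlaIII, and released by MmeI as tags of 21 bases; PCR and Illumina sequencing followed. Each deposited table gives raw tag counts per UniGene cluster and, per the file headers, each tag with its copy number and its site number from the 3′ end. It also gives TPM values, which are tags per 1000000 of all tags the authors kept. The kept totals were worked out here from the counts and TPM values of the most abundant clusters. They came to 5666060 to 6070058 per library, of which the tables hold 45.3% to 47.1%. The sources used here do not name the aligner, the mismatches allowed or the builds. No tag with fewer than 2 copies is listed, so an unlisted gene may have had tags, and no ratio is given for it.

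The deposited counts were analysed. Tags were matched exactly, on the sense strand, to GENCODE mouse release M21 transcripts (GRCm38), and a cluster took the gene with at least 80% of its matched and 50% of all its tags. Of 20595 clusters, 4557 stayed unnamed. Counts were scaled by edgeR 4.0.16 TMM (factors 1.03, 0.94 and 1.03). A pseudocount of 0.5 tags, in proportion to library size, was added before log2 ratios were taken. Ratio intervals are exact (Clopper-Pearson) and the main steps were tested on simulated data. With 1 library a group, no differential test with replicates could be made. Alternatives were DESeq2 1.42.0 size factors, other totals, pseudocounts, filters and tag choices.

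The members, gene lists and naming rule were chosen with earlier results of these data known. Named were all members, other globins and membrane genes with 15 or more tags, up to 4 genes of each other list with the largest day 2 over day 0 ratios at 20 CPM or more, those past 2-fold at that level, and the 5 likest genes. Other genes, such as Ppox, Epor, Hmox1, Tfrc, Flvcr1, Slc25a39, Trf and those unlisted or nearly so, were named after their values were seen. Some genes of the lists are counted but not reported by name here.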

Additional observations from a re-analysis of the deposited data

How the results depend on the processing

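Of 150 alternative values for 21 results, 129 kept within their limits and 21 moved, and no log2 ratio of 2-fold or more changed sign. A further 12 gave no value, because beta globin and Bpgm have no usable tags at the 3′-most site and Alas2 none without its main tag at days 1 and 2. The log2 ratio of alpha globin for day 1 over day 0 was -0.23 scaled to all kept tags, -0.28 to tags assigned to clusters and -0.22 to tags outside globin, hair and muscle genes. Without the most abundant tag it was 0.18, a change of sign from -0.15. Alpha globin without that tag stood at -4.12 for day 2 over day 0 and -4.30 for day 2 over day 1. Bpgm without its most abundant tag stood at -1.34 over day 0, past 2-fold, and -1.73 over day 1. With exactly matching tags only, the alpha to beta ratio was 78.3 at day 0, 60.1 at day 1 and 40.6 at day 2, since the opposite-strand tags leave the beta count. TMM without the globin clusters, added after seeing the data, moved no result beyond its limits.

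In the 8 red cell lists, the day 1 over day 0 count of higher genes (4) was 2 with all kept tags, 1 with assigned tags, 2 with tags outside globin, hair and muscle genes and 8 with no filter, and that of lower genes (0) was 5 with no filter. For day 2 over day 0, the count of lower genes (1) was 7 with no filter and 0 at 100 or more tags. For day 2 over day 1, lower genes (1) were 5 with no filter, and higher genes (3) were 5 with all kept tags, 5 with assigned tags and 6 with no filter. Without the filter, genes of a few tags enter through the pseudocount. No paired analysis was possible because each group has 1 library. Depth limits beta globin and Alas2 at day 2, on 15 and 17 tags.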
